A study of Saccharomyces cerevisiae with 8 samples.

Results

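The ribosome-associated chaperones and the nascent polypeptide-associated complex of budding yeast were followed through heat shock and depletion of the coactivator Ifh1. They comprised 7 genes, chosen by symbol in the deposited tables out of 6034 coding targets: SSB1, SSB2, ZUO1, SSZ1, EGD1, EGD2 and BTT1. All 7 were found, 1 row each, and all 7 passed the filter on low counts that left 5734 targets for testing. The data are 8 poly-A RNA libraries of Saccharomyces cerevisiae W303a, 2 for each of 4 groups. Cultures had grown in YPD (2% dextrose, 30 °C) until OD600 reached 0.2 to 0.4. Heat shock + 5ph-IAA cells were depleted of Ifh1 and held at 39 °C for 5 min. Heat shock cells were held at 39 °C for 5 min without depletion. Control + 5ph-IAA cells were depleted and held at 30 °C for 5 min, and control cells stayed at 30 °C without depletion. Depletion took 30 min with 1 µM β-estradiol and 5 µM 5ph-IAA per the treatment protocol. 5ph-IAA is an auxin analogue used to send proteins that carry a degron tag to degradation. The design text instead names anchor away, which drags a protein out of the nucleus. The labels do not say what cells without 5ph-IAA received, nor whether both kinds of cells were the same tagged strain. Depletion acts on Ifh1 protein, so the IFH1 transcript does not check the labels. It stood at 13.7 and 14.3 TPM in heat shock + 5ph-IAA, 10.1 and 9.06 TPM in heat shock, 26.6 and 24.0 TPM in control + 5ph-IAA, and 24.1 and 22.6 TPM in control libraries.

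Ribosomes in yeast carry chaperones at the exit of the peptide tunnel. Ssb1 and Ssb2 are Hsp70 proteins that bind the growing chain. Zuo1, a J-domain protein, and Ssz1, an atypical Hsp70, form the ribosome-associated complex, which stimulates the ATPase of Ssb. The nascent polypeptide-associated complex pairs an alpha subunit, Egd2, with a beta subunit, which is Egd1 or the minor form Btt1. SSB genes are known in yeast for being expressed along with ribosomal protein genes and not with the heat-induced Hsp70s of the SSA family. Ifh1 works with Fhl1 and Rap1 at ribosomal protein promoters.

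The 7 genes lie on 5 chromosomes in the RefSeq reference assembly R64. SSB1 (YDL229W) is at chrIV:44065-45906 on the plus strand and SSB2 (YNL209W) at chrXIV:252059-253900 on the plus strand. ZUO1 (YGR285C) is at chrVII:1061852-1063153 and SSZ1 (YHR064C) at chrVIII:225525-227141, both on the minus strand. EGD1 (YPL037C) is at chrXVI:481428-481901 and EGD2 (YHR193C) at chrVIII:487712-488236, both on the minus strand, and BTT1 (YDR252W) is at chrIV:963412-963861 on the plus strand. Each has 1 coding exon, and no other target overlaps it. The build behind the deposited files is not given in the sources used here, but the target length equalled the R64 coding length for 6018 of 6019 targets found in both.

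The stretch upstream of the coding start is shown because 6 of the 7 genes share a motif there that the choice of genes did not use. Each line holds the 90 bases that lie 180 to 91 bases before the start codon, read 5′ to 3′ on the gene's own strand. Capitals mark matches to the RRPE letters AAAAATTT (ribosomal RNA processing element, a motif bound by Stb3 in yeast) or to the PAC letters GATGAG (polymerase A and C box, bound by Dot6 and Tod6), on either strand.
SSB1 promoter, chrIV:43885-43974, plus strand: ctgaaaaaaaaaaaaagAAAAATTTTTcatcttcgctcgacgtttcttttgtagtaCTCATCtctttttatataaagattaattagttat
SSB2 promoter, chrXIV:251879-251968, plus strand: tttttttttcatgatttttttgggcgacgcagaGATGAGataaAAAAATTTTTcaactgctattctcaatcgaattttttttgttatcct
ZUO1 promoter, chrVII:1063244-1063333, minus strand: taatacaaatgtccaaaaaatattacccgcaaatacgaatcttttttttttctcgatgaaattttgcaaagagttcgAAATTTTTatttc
SSZ1 promoter, chrVIII:227232-227321, minus strand: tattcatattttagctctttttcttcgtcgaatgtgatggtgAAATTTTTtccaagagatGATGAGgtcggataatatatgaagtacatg
EGD1 promoter, chrXVI:481992-482081, minus strand: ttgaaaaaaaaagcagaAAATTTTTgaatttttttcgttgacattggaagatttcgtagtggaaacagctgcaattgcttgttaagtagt
EGD2 promoter, chrVIII:488327-488416, minus strand: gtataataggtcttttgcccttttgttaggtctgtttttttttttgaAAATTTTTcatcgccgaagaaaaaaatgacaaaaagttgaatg
BTT1 promoter, chrIV:963232-963321, plus strand: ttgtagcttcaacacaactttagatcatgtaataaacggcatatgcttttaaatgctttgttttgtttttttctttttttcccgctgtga
Within the 300 bases before the start codon, RRPE matched in SSB1, SSB2, ZUO1, SSZ1, EGD1 and EGD2, and not in BTT1. Its matches lay between positions −163 and −96, counted back from the start codon. Among 5993 promoters of the same length, 15.2% held these letters, as did 13.1% of 137 ribosomal protein promoters and 0 of 25 promoters in a list of Hsf1-driven chaperone genes. PAC matched in 3 of the 7 (SSB1, SSB2 and SSZ1), against 19.1% of all promoters, 11.7% of ribosomal protein promoters and 24.0% of the Hsf1 list. In SSB1 and SSB2 overlapping matches on both strands join into AAAAATTTTT. Of the 3 other motifs searched, also on both strands, AGGGG (the stress response element) matched in EGD1 and in 22.2% of all promoters. It matched in 17.5% of ribosomal protein promoters and 28.0% of the Hsf1 list. ACCCNNACA (a core of the Rap1 site) matched in EGD2, in 3.12% of all promoters and in 16.1% of ribosomal protein promoters. A heat shock element of 3 alternating GAA and TTC units (either unit first, with NN between units) matched in none of the 7, in 0.868% of all promoters and in 44.0% of the Hsf1 list. A match is a run of letters, and binding was not measured.

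SSB1 and SSB2 are near-copies, and the following 90 bases are shown because such differences are what lets a read be given to a single gene. Their coding sequences are 1842 bases long each and 97.39% identical, with 48 differing positions. The longest identical stretch runs for 563 bases from base 466. The window with the most differences, bases 1219 to 1308 of the coding sequence, has 12, marked in capitals.
SSB1, chrIV:45283-45372, plus strand: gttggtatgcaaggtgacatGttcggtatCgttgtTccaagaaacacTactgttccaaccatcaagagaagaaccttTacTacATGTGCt
SSB2, chrXIV:253277-253366, plus strand: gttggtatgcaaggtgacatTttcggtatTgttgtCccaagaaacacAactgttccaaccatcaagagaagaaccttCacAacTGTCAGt
Of the 31-base words in either gene, 57.84% also occur in the other. Reads from shared words were divided between them by kallisto, so the separate values of SSB1 and SSB2 depend on that division, and their sum is given below. SSB1 shares 10 and SSB2 shares 12 of 1812 such words with SSA1, and the same numbers with SSA2. ZUO1, SSZ1, EGD1, EGD2 and BTT1 share none with any other target.

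The deposited estimated counts summed to 7717767 to 21025464 per library, with the 2 heat shock libraries deepest. Pearson's r of log2 TPM between the 2 libraries of a group was 0.990 to 0.996 across genes. TPM is a gene's share of all transcripts in a library, corrected for length and scaled to a fixed total. Ribosomal protein genes (137, of which 6 were listed at 0) took 10.3% of TPM in heat shock + 5ph-IAA, 19.3% to 19.8% in heat shock, 17.1% to 17.3% in control + 5ph-IAA and 39.7% to 40.6% in control libraries, so a TPM compares a gene with a total whose makeup differed. Fold changes below therefore come from edgeR's quasi-likelihood test with TMM scaling, which sets the bulk of genes near 0, with Benjamini-Hochberg adjustment over all tested genes and a threshold of 0.05. A ± after a fold change is its standard error, and a ± after a level is the SD of 2 libraries. In bulk RNA, a loss in some cells and a smaller loss in all cells cannot be told apart. Of 6 a-cell markers, 4 were detected (MFA1 and MFA2, which are very short, were listed at 0), and their sum was 227 to 1099 TPM against 25.8 to 53.5 TPM for 4 alpha-cell markers. Within the a-cell markers the sum was 496 to 498 TPM in heat shock + 5ph-IAA, 227 to 245 TPM in heat shock, 1094 to 1099 TPM in control + 5ph-IAA and 742 to 776 TPM in control libraries.

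Together the 7 genes made up 0.476 ± 0.00417% of TPM in heat shock + 5ph-IAA, 0.362 ± 0.00336% in heat shock, 0.813 ± 0.000571% in control + 5ph-IAA and 0.738 ± 0.00734% in control libraries (SD, n = 2 each). Both heated groups lay below both groups at 30 °C, and each 5ph-IAA group lay above its counterpart.

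Among the Ssb chaperones, SSB1 had 711 and 717 TPM in heat shock + 5ph-IAA, 496 and 490.03 TPM in heat shock, 1726 and 1718 TPM in control + 5ph-IAA, and 1941 and 1989.8 TPM in control libraries. The 4 groups did not overlap, and the control libraries were highest. SSB2 had 627 and 609 TPM in heat shock + 5ph-IAA, 391 and 395 TPM in heat shock, 1304 and 1336 TPM in control + 5ph-IAA, and 1263 and 1273 TPM in control libraries. Here too no groups overlapped, but control + 5ph-IAA was highest. The sum of both genes averaged 1332 ± 8.60 TPM in heat shock + 5ph-IAA, 886 ± 1.54 TPM in heat shock, 3042 ± 16.6 TPM in control + 5ph-IAA and 3233 ± 41.2 TPM in control libraries (SD, n = 2 each). Such gaps in TPM were common among all tested genes. With 5ph-IAA, 89% were higher without overlap at 30 °C and 73% at 39 °C, against 5.95% and 11.5% lower. On heating, 38.5% were lower without 5ph-IAA and 55.7% with it, against 52.1% and 32.6% higher.

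Of the ribosome-associated complex, ZUO1 had 514 and 506 TPM in heat shock + 5ph-IAA, 266 and 264 TPM in heat shock, 955 and 924 TPM in control + 5ph-IAA, and 674 and 667 TPM in control libraries. SSZ1 had 370.3 and 376 TPM in heat shock + 5ph-IAA, 214 and 220.1 TPM in heat shock, 617 and 617 TPM in control + 5ph-IAA, and 419 and 423 TPM in control libraries. For both genes the groups kept 1 order without overlap, with control + 5ph-IAA on top and heat shock at the bottom. Most tested genes were likewise higher in TPM with 5ph-IAA, 89% at 30 °C and 73% at 39 °C.

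Of the nascent polypeptide-associated complex, EGD1 had 1232 and 1211 TPM in heat shock + 5ph-IAA, 1087 and 1152 TPM in heat shock, 1846 and 1867 TPM in control + 5ph-IAA, and 1636 and 1703 TPM in control libraries. EGD2 had 1286 and 1268 TPM in heat shock + 5ph-IAA, 1124 and 1104 TPM in heat shock, 1645 and 1645 TPM in control + 5ph-IAA, and 1381 and 1360.2 TPM in control libraries. Both followed the group order of ZUO1 and SSZ1 over a narrower range, with the higher TPM under 5ph-IAA that most tested genes shared. BTT1, the minor beta subunit, was far lower, with 44.5 and 38.8 TPM in heat shock + 5ph-IAA, 18.6 and 20.8 TPM in heat shock, 36.8 and 31.3 TPM in control + 5ph-IAA, and 15.9 and 17.9 TPM in control libraries. Its groups did not overlap either, and the heated groups were the higher ones within each treatment. Its values rest on 144 and 115, 137 and 148, 97 and 108, and 57 and 67 estimated counts in the same order of groups, so its counting error is the widest of the 7.

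**Figure D1:**
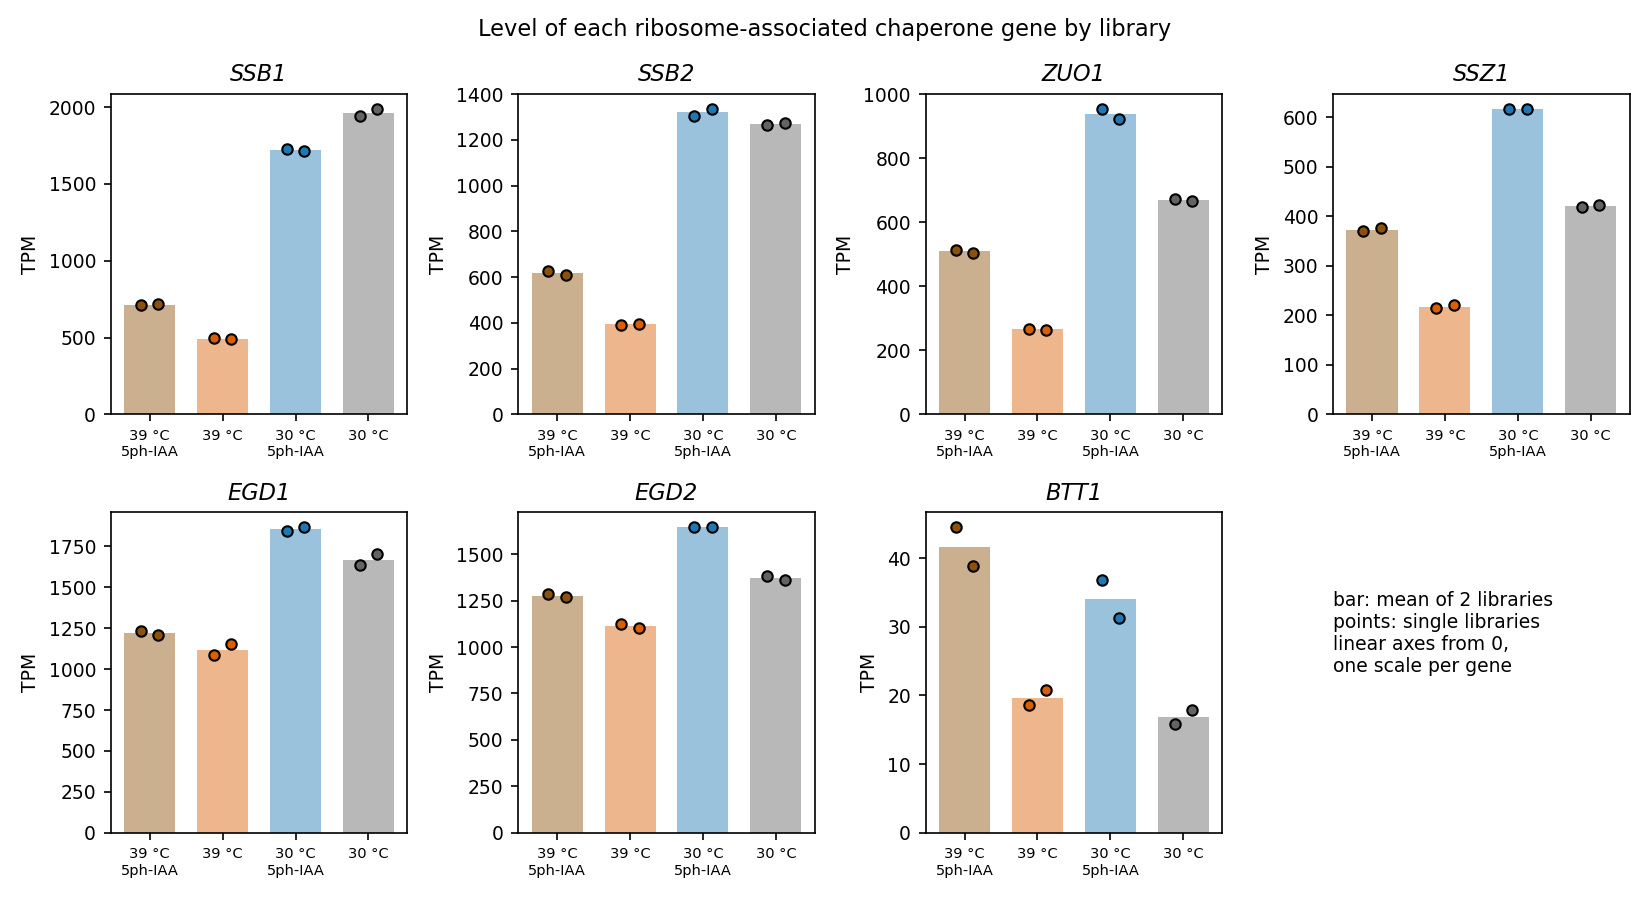
Level of each gene in TPM (linear axes from 0, 1 scale per gene) in heat shock + 5ph-IAA, heat shock, control + 5ph-IAA and control, drawn left to right. Bars are means of 2 libraries and points are single libraries; SSB1 is highest in control at 1941 and 1989.8 TPM, while BTT1 is highest in heat shock + 5ph-IAA at 44.5 and 38.8 TPM.

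The order of levels within a group, on the TPM scale, also differed. In heat shock + 5ph-IAA libraries the order was EGD2, EGD1, SSB1, SSB2, ZUO1, SSZ1 and BTT1, and no neighbours overlapped. In heat shock, EGD1 and EGD2 overlapped at the top and the other genes followed in that same order. In control + 5ph-IAA it was EGD1, SSB1, EGD2, SSB2, ZUO1, SSZ1 and BTT1, and in control SSB1 led, followed by EGD1, EGD2, SSB2, ZUO1, SSZ1 and BTT1, with neighbours apart in both groups. SSB1 thus moved between the first and the third place, at a level above that of 97.8% of all targets in control and 94.1% in heat shock. BTT1 was last throughout, above 31.8% of targets in control and 47.8% in heat shock + 5ph-IAA.

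Heat shock without 5ph-IAA lowered 6 of the 7 genes and raised none, where 39.7% of all tested genes were called lower and 42.5% higher (82.2% in either direction). The median over the 7 was −1.09 on the log2 scale, against 0.04 over all tested genes and −1.22 over 131 tested ribosomal protein genes, of which 130 were called lower. SSB1 fell most, by 2.13 ± 0.04 on the log2 scale (4.37-fold lower, adjusted p = 1.39e-14), and SSB2 next, by 1.82 ± 0.05 (3.53-fold lower, adjusted p = 1.43e-13). With the counts of both added before the fit, the change was −1.999 ± 0.04 (adjusted p = 2.22e-14). Of 131 ribosomal protein genes, 7 had a lower fold change than SSB1 and 12 a lower one than SSB2.

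ZUO1 fell by 1.47 ± 0.04 (2.77-fold lower, adjusted p = 5.03e-13) and SSZ1 by 1.09 ± 0.05 (2.12-fold lower, adjusted p = 3.89e-11), both closer to 0 than the values of the SSB genes. The genes of the nascent polypeptide-associated complex had the smallest called changes. EGD1 fell by 0.71 ± 0.05 (1.63-fold lower, adjusted p = 3.38e-08) and EGD2 by 0.43 ± 0.04 (1.35-fold lower, adjusted p = 3.97e-07). Among ribosomal protein genes, 127 of 131 had a lower fold change than EGD1 and 130 a lower one than EGD2. BTT1 did not pass the test, at 0.09 ± 0.21 (adjusted p = 0.704, 95% interval −0.37 to 0.55), although its TPM in heat shock lay above control, as for 52.1% of tested genes. The other 6 lay below control, as did 38.5%.

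5ph-IAA at 30 °C gave lower values for 5 of the 7 genes with TMM scaling, where 28.1% of tested genes were called lower, and higher values for none, where 23.6% were called higher (51.7% in either direction). SSB1 changed by −0.84 ± 0.04 (adjusted p = 1.41e-09), SSB2 by −0.59 ± 0.04 (adjusted p = 1.36e-07), EGD1 by −0.50 ± 0.06 (adjusted p = 6.27e-06) and EGD2 by −0.39 ± 0.04 (adjusted p = 5.31e-06). ZUO1 changed little, by −0.16 ± 0.04 (adjusted p = 0.00442). SSZ1 (−0.10 ± 0.05, adjusted p = 0.0841, 95% interval −0.20 to −0.00) and BTT1 (0.36 ± 0.22, adjusted p = 0.187, 95% interval −0.11 to 0.82) did not pass. SSB1 and SSB2 summed gave −0.74 ± 0.04 (adjusted p = 5.19e-09). The median over the 7 was −0.39 against −2.01 over ribosomal protein genes, and 130 of 131 ribosomal protein genes had a lower fold change than SSB1.

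Direction in this comparison depended on the scale for most of the genes. On the TPM scale SSB1 was lower in control + 5ph-IAA, as for 5.95% of tested genes, and the other 6 were higher, as for 89%. The median of all tested genes was −0.02 with TMM, 0.61 on the log2(TPM + 1) scale and 0.38 with library totals alone. With library totals alone SSB1 (−0.44) and SSB2 (−0.19) were lower, and ZUO1 (0.24), SSZ1 (0.30), EGD2 (0.01) and BTT1 (0.76) had positive values. A change of scaling shifts all genes by nearly the same amount, and subtracting the median of all tested genes removes that shift. The 5 scalings therefore gave nearly the same values by construction, which does not show which scaling is right. These values were −0.83 to −0.80 for SSB1, −0.58 to −0.56 for SSB2, −0.48 to −0.46 for EGD1, −0.37 to −0.35 for EGD2, −0.15 to −0.13 for ZUO1, −0.08 to −0.06 for SSZ1 and 0.36 to 0.37 for BTT1.

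**Figure D2:**
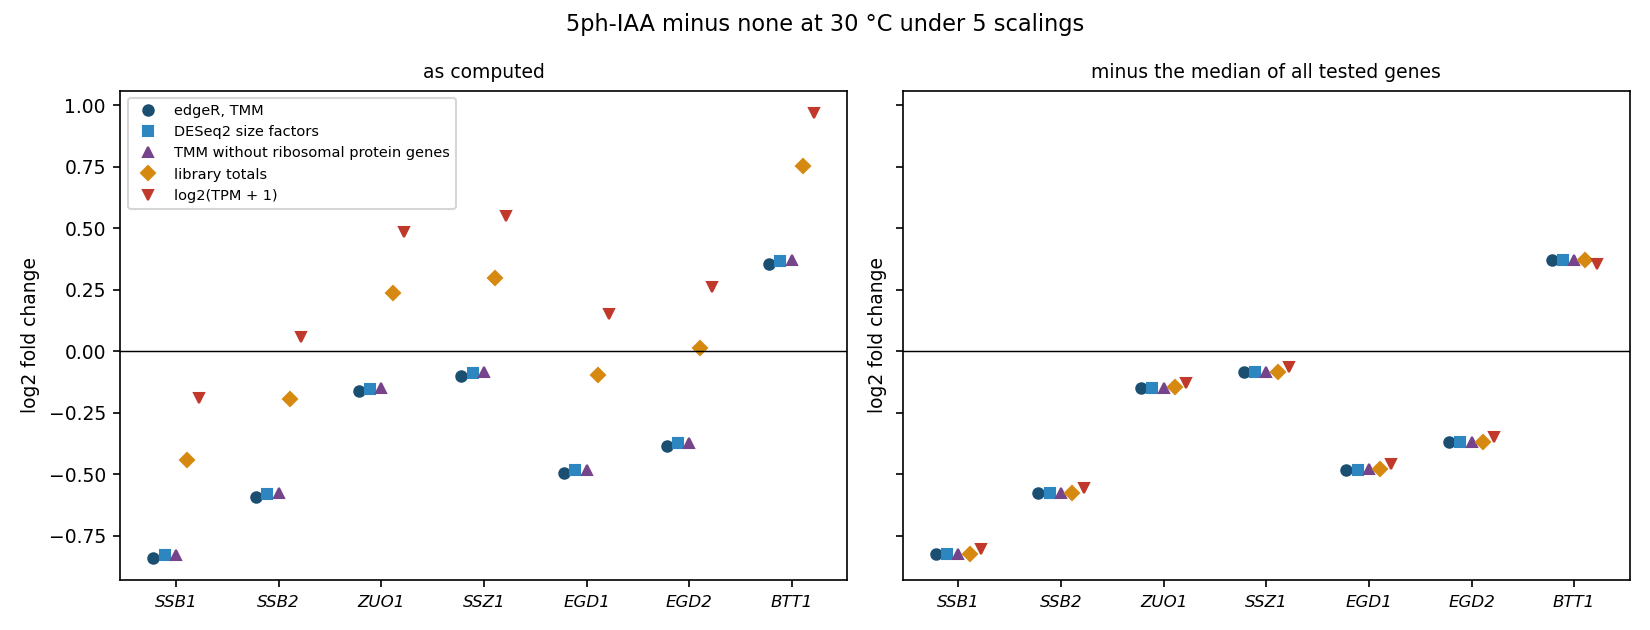
Log2 fold change of each gene for 5ph-IAA minus none at 30 °C under 5 scalings, as computed (left) and after subtracting the median of all tested genes (right). On the left, ZUO1 spans −0.16 to 0.49 and crosses 0. On the right the 5 points of each gene nearly coincide, because subtracting the median removes the shift shared by all genes.

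Heat shock with 5ph-IAA lowered 6 of the 7 genes, where 38.3% of tested genes were called lower, and raised BTT1, where 38% were called higher (76.2% in either direction). SSB1 fell by 1.04 ± 0.04 (2.06-fold lower, adjusted p = 4.13e-11) and SSB2 by 0.87 ± 0.05 (1.83-fold lower, adjusted p = 6.75e-10). In TPM, 6 genes lay below control + 5ph-IAA, as did 55.7% of tested genes, and BTT1 above it, as did 32.6%. ZUO1 fell by 0.66 ± 0.04 (adjusted p = 5.1e-09), SSZ1 by 0.50 ± 0.05 (adjusted p = 2.76e-07) and EGD1 by 0.38 ± 0.06 (adjusted p = 3.46e-05). The 2 SSB genes again fell most and the alpha subunit gene least, with EGD2 down by 0.14 ± 0.04 (adjusted p = 0.00905). With library totals alone the 6 changes were larger, at −1.37 for SSB1, −1.20 for SSB2, −0.99 for ZUO1, −0.83 for SSZ1, −0.71 for EGD1 and −0.47 for EGD2. The call for EGD2 was lost without control + 5ph-IAA replicate 2 (adjusted p = 0.0565) or heat shock + 5ph-IAA replicate 2 (adjusted p = 0.0638). BTT1 rose by 0.52 ± 0.20 (1.44-fold, adjusted p = 0.0311), but the call was lost with DESeq2 (0.50, adjusted p = 0.0526), with library totals alone (0.19, adjusted p = 0.379), without control + 5ph-IAA replicate 2 (0.42, adjusted p = 0.15) and without heat shock + 5ph-IAA replicate 1 (0.41, adjusted p = 0.167).

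5ph-IAA at 39 °C gave higher values for 5 of the 7 genes, where 22.5% of tested genes were called higher, and a lower one for EGD1, where 22% were called lower (44.5% in either direction). ZUO1 rose by 0.65 ± 0.04 (1.57-fold, adjusted p = 2.92e-08) and SSZ1 by 0.49 ± 0.05 (1.40-fold, adjusted p = 1.4e-06). SSB2 rose by 0.36 ± 0.05 (1.28-fold, adjusted p = 2.12e-05) and SSB1 by 0.24 ± 0.04 (1.18-fold, adjusted p = 0.000359), and their sum by 0.30 ± 0.04 (adjusted p = 5.42e-05). BTT1 rose by 0.79 ± 0.20 (1.73-fold, adjusted p = 0.00529), with an adjusted p of 0.0629 without heat shock replicate 1. Ribosomal protein genes had a median of −1.32 in the same comparison, with 122 of 131 called lower and 6 higher. These 5 rises held their direction with every scaling run, but their size did not. On the log2(TPM + 1) scale they were 0.53 for SSB1, 0.65 for SSB2, 0.94 for ZUO1, 0.78 for SSZ1 and 1.04 for BTT1. With library totals alone they were 0.39 for SSB1, 0.51 for SSB2, 0.79 for ZUO1, 0.63 for SSZ1 and 0.93 for BTT1.

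EGD1 and EGD2 stood apart from the other 5 at 39 °C. EGD1 fell by 0.17 ± 0.06 (adjusted p = 0.0257) with TMM but was higher by 0.13 on the log2(TPM + 1) scale, and its call was lost with DESeq2 (adjusted p = 0.105) and without heat shock replicate 2 (adjusted p = 0.241). EGD2 did not pass (−0.10 ± 0.04, adjusted p = 0.0815, 95% interval −0.19 to −0.01) and was higher by 0.20 on the log2(TPM + 1) scale. That interval is not adjusted for the number of genes tested. In TPM all 7 genes were higher in heat shock + 5ph-IAA than in heat shock, as were 73% of tested genes, with 11.5% lower.

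The interaction, which subtracts the heat shock change of cells without 5ph-IAA from that of cells with it, was positive for 6 of the 7 genes, where 26% of tested genes were called positive and 22.9% negative (48.9% in all). It was 1.08 ± 0.06 for SSB1 (adjusted p = 7.2e-09), 0.95 ± 0.06 for SSB2 (adjusted p = 5.11e-08), 0.81 ± 0.06 for ZUO1 (adjusted p = 1.01e-07) and 0.59 ± 0.06 for SSZ1 (adjusted p = 6.05e-06). Their falls on heating were thus smaller with 5ph-IAA under each of the scalings run, by a size that depended on the scaling. On the log2(TPM + 1) scale the interaction was 0.72 for SSB1, 0.60 for SSB2, 0.45 for ZUO1 and 0.23 for SSZ1. With library totals alone it was 0.83 for SSB1, 0.70 for SSB2, 0.56 for ZUO1 and 0.33 for SSZ1. It was 0.33 ± 0.08 for EGD1 (adjusted p = 0.0035) and 0.29 ± 0.06 for EGD2 (adjusted p = 0.00127), both of which turned to −0.03 and −0.07 on the log2(TPM + 1) scale. BTT1 did not pass (0.43 ± 0.29, adjusted p = 0.244, 95% interval −0.20 to 1.07). Ribosomal protein genes had a median interaction of 0.66, with 129 of 131 positive, and 118 of them lay below SSB1 while 2 lay below EGD1. Heat shock and control libraries enter both the interaction and the simple comparisons, so the 5 sets of values are not independent of each other.

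**Figure D3:**
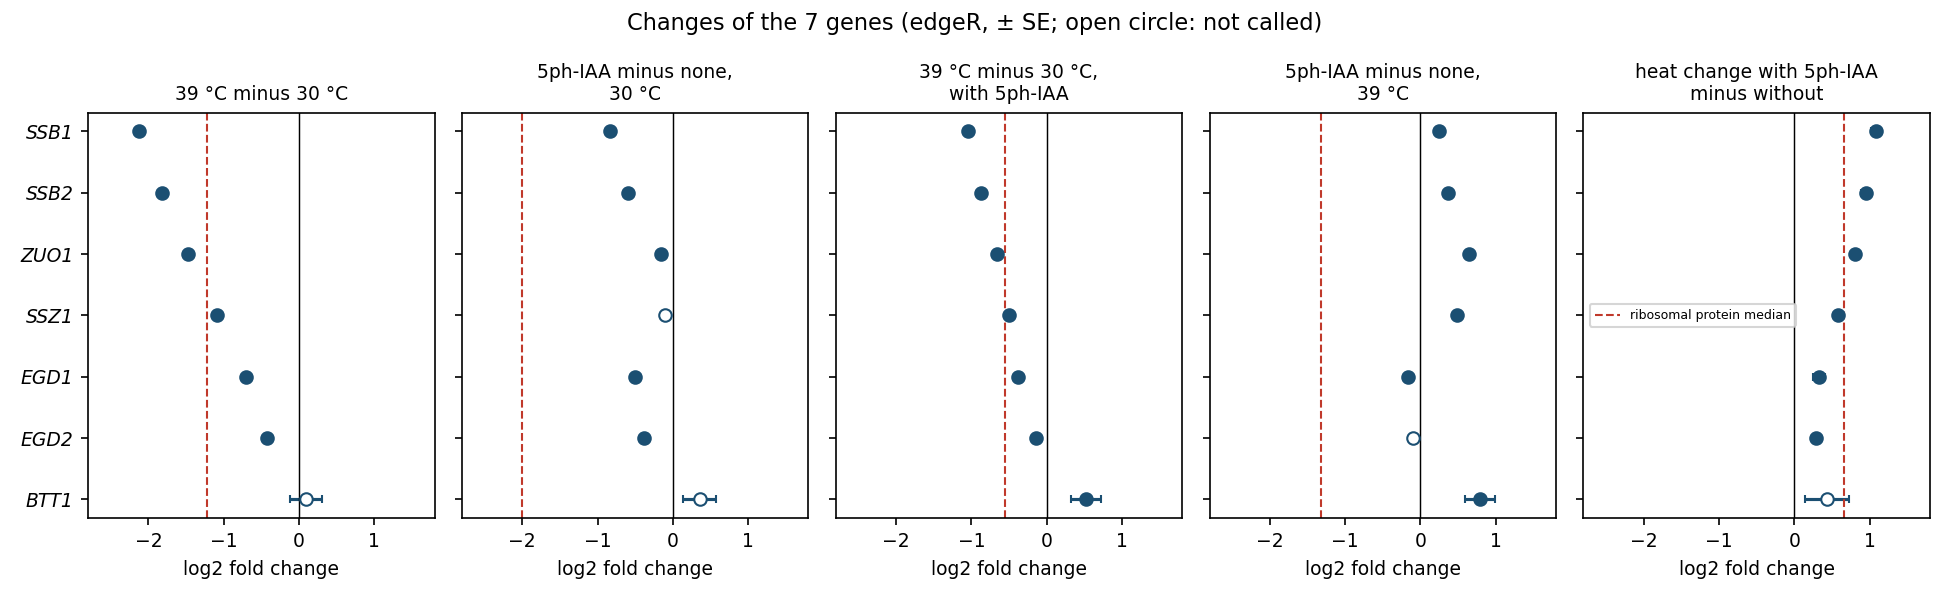
Log2 fold change ± SE of each gene (edgeR, TMM scaling) in the 5 comparisons, with filled circles for adjusted p under 0.05, open circles otherwise and a dashed line at the median of ribosomal protein genes. SSB1 lies left of that line on heating (−2.13 against −1.22) and right of it for 5ph-IAA at 30 °C (−0.84 against −2.01).

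Ratios of TPM within a library do not depend on the scaling between libraries. SSB2 to SSB1 was 0.867 ± 0.0228 in heat shock + 5ph-IAA, 0.797 ± 0.0110 in heat shock, 0.767 ± 0.0159 in control + 5ph-IAA and 0.645 ± 0.00798 in control libraries. No groups overlapped, and SSB1 was above SSB2 in all 8 libraries. ZUO1 to SSZ1 was 1.37 ± 0.0302 in heat shock + 5ph-IAA, 1.22 ± 0.0313 in heat shock, 1.52 ± 0.0364 in control + 5ph-IAA and 1.59 ± 0.0229 in control libraries, so heated groups lay below their unheated counterparts. EGD1 to EGD2 was 0.957 ± 0.00181 in heat shock + 5ph-IAA, 1.01 ± 0.0539 in heat shock, 1.13 ± 0.00903 in control + 5ph-IAA and 1.22 ± 0.0473 in control libraries, and again the heated groups were lower.

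Between the complexes the shifts were wider. Summed SSB genes to summed ZUO1 and SSZ1 stood at 1.51 ± 0.00737 in heat shock + 5ph-IAA, 1.84 ± 0.0119 in heat shock, 1.95 ± 0.0380 in control + 5ph-IAA and 2.96 ± 0.0430 in control libraries. Summed EGD1 and EGD2 to summed SSB genes stood at 1.88 ± 0.00864 in heat shock + 5ph-IAA, 2.52 ± 0.0397 in heat shock, 1.15 ± 0.00137 in control + 5ph-IAA and 0.940 ± 0.00184 in control libraries. The transcripts of the nascent polypeptide-associated complex thus outnumbered those of SSB in every group but the control. BTT1 came to 3.40 ± 0.289% of EGD1 in heat shock + 5ph-IAA, 1.76 ± 0.0679% in heat shock, 1.84 ± 0.225% in control + 5ph-IAA and 1.01 ± 0.0577% in control libraries (SD, n = 2 each for all ratios). In each of the 4 pairwise comparisons the groups of every ratio here were apart, but an exact permutation test of 2 against 2 libraries cannot go below p = 0.333, which is what each gave (2-sided).

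**Figure D4:**
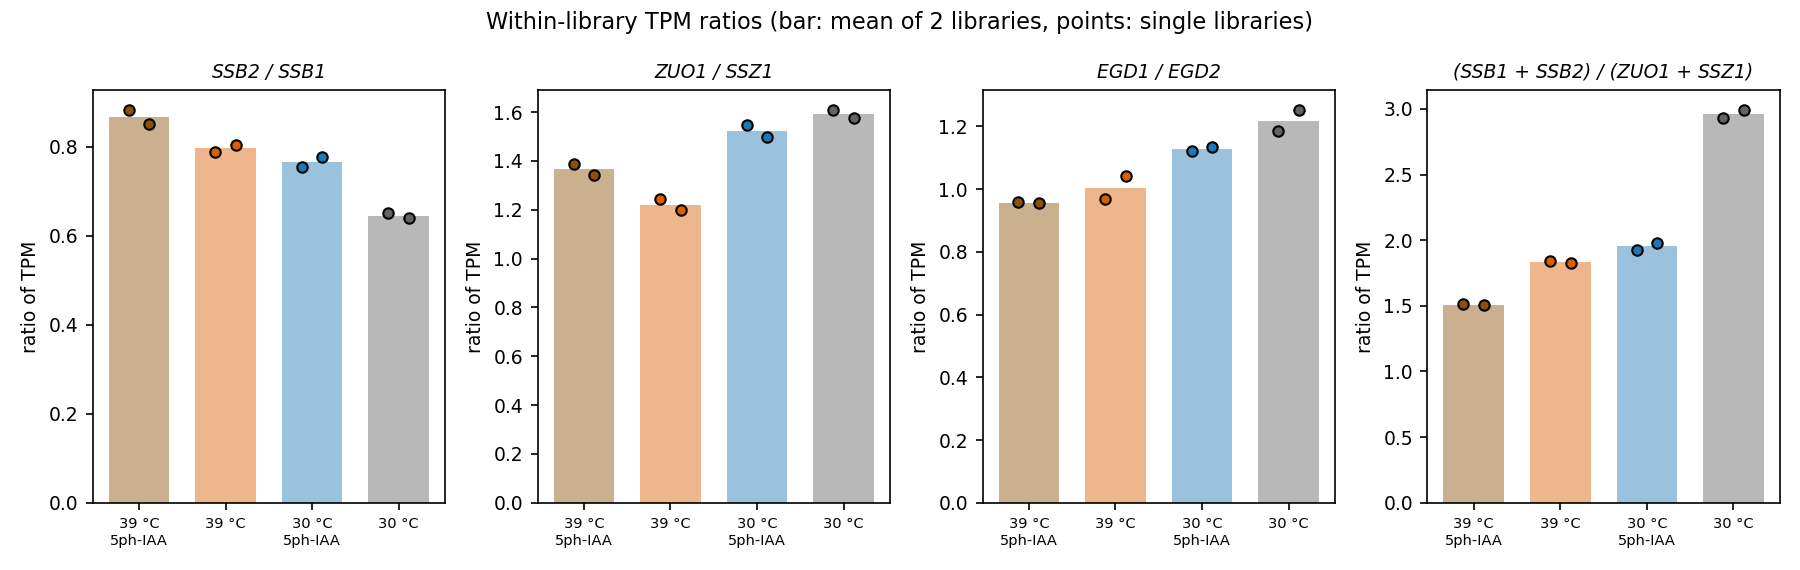
Ratios of TPM within each library (linear axes from 0), with bars for the mean of 2 libraries and points for single libraries. The ratio of summed SSB genes to summed ZUO1 and SSZ1 is 2.96 in control and 1.51 to 1.95 in the other groups.

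Set against the ribosome's own genes, summed SSB TPM was 1.29 ± 0.00510% of summed ribosomal protein TPM in heat shock + 5ph-IAA, 0.452 ± 0.00933% in heat shock, 1.77 ± 0.000323% in control + 5ph-IAA and 0.805 ± 0.00347% in control libraries. It was higher with 5ph-IAA at both temperatures and lower with heat under both treatments. Of the 137 ribosomal protein genes, 6 were listed at 0 and added nothing to the ribosomal protein sum. Against the cytosolic Hsp70 genes SSA1 to SSA4, summed SSB TPM was 0.0675 ± 0.000886 in heat shock + 5ph-IAA, 0.0427 ± 0.000616 in heat shock, 1.52 ± 0.0436 in control + 5ph-IAA and 1.85 ± 0.0802 in control libraries. SSA transcripts were thus the more abundant at 39 °C, and SSB transcripts at 30 °C (SD, n = 2 each).

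Several genes bear directly on the 7. Exchange factors that release ADP from Ssb moved the other way on heating. FES1 averaged 4344 ± 113 TPM in heat shock + 5ph-IAA, 4748 ± 78.4 TPM in heat shock, 167 ± 0.232 TPM in control + 5ph-IAA and 134 ± 1.65 TPM in control libraries, and rose by 5.01 ± 0.05 on the log2 scale in heat shock. SSE1, an Hsp110, averaged 2345 ± 58.1 TPM in heat shock + 5ph-IAA, 2505 ± 13.8 TPM in heat shock, 546 ± 2.54 TPM in control + 5ph-IAA and 525 ± 3.56 TPM in control libraries, and rose by 2.12 ± 0.04 in heat shock. Both were several-fold above their 30 °C levels in each heated group. JJJ1, another ribosome-bound J-protein, stood at 25.8 ± 0.362 TPM in heat shock + 5ph-IAA, 11.6 ± 1.58 TPM in heat shock, 73.3 ± 2.57 TPM in control + 5ph-IAA and 50.4 ± 1.64 TPM in control libraries. It fell by 2.25 ± 0.07 in heat shock (adjusted p = 1.96e-12), rose by 0.86 ± 0.08 with 5ph-IAA at 39 °C (adjusted p = 1.06e-06), and had an interaction of 0.97 ± 0.10 (adjusted p = 4.24e-06). RPL31A, RPL31B and RPL25 encode proteins at the tunnel exit that contact these chaperones. In heat shock RPL31A changed by −0.95 ± 0.04, RPL31B by −1.31 ± 0.05 and RPL25 by −1.04 ± 0.05, all closer to 0 than SSB1. With 5ph-IAA at 30 °C RPL31A changed by −2.23 ± 0.05, RPL31B by −2.60 ± 0.05 and RPL25 by −2.03 ± 0.05, all farther from 0 than SSB1. RPL31A and RPL31B are themselves near-copies.

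Other genes that act on the emerging or newly made chain were counted in 6 lists. Heat shock without 5ph-IAA lowered all 8 genes of the TRiC chaperonin, which folds actin and tubulin, with a median of −1.06 and a range of −1.10 (CCT3) to −0.93 (TCP1). All 6 prefoldin genes, whose product hands chains to TRiC, were lower too, with a median of −0.84 and values of −1.16 for PAC10 and −0.55 for GIM4. All 8 genes of the signal recognition particle and its receptor, which bring chains to the endoplasmic reticulum, were lower with a median of −0.82 and a range of −1.28 to −0.38 (SRP14). Of 12 genes for amino-terminal acetylation, methionine removal and myristoylation, 10 were lower and 1 higher (NAT4, 1.85 ± 0.55), with a median of −0.84 and a value of −1.40 for MAK10. Of 7 ribosome quality control genes, 4 were lower and 1 higher (CDC48, 0.26 ± 0.04), with a median of −0.24. The 10 Hsp70 partners, all of them Hsp70 genes of the SSA family, exchange factors or J-proteins, went the other way. In that list 9 were higher, SSA4 by 8.72 ± 0.06, and 1 was lower (SNL1, −1.28 ± 0.11), an exchange factor tethered to the endoplasmic reticulum and nuclear membrane that also binds ribosomes. Apart from SSE2 and SNL1 these partners are also in the Hsf1 list, so the 2 lists are not independent. JJJ1, a J-protein that fell, is in neither. Against these medians stand −1.09 for the 7 genes and 0.04 for all tested genes, of which 39.7% were called lower and 42.5% higher.

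5ph-IAA at 30 °C gave smaller values in the same lists. TRiC genes were all 8 lower with TMM, with a median of −0.30, but that median was 0.10 when only library totals were used and 0.35 on the log2(TPM + 1) scale. Lower calls were made for 5 of 12 chain modification genes, 4 of 8 signal recognition particle genes, 2 of 6 prefoldin genes and 1 of 7 ribosome quality control genes with TMM, and no higher ones, and the median of each of these lists was above 0 with library totals alone. Over all tested genes, 28.1% were called lower and 23.6% higher with TMM. Hsp70 partners split into 4 higher and 4 lower with TMM, against 8 and 0 on the log2(TPM + 1) scale and 6 and 2 with library totals alone. Heating with 5ph-IAA lowered all 8 TRiC, all 6 prefoldin and all 8 signal recognition particle genes again, with medians of −0.61, −0.61 and −0.53, and raised 9 of 10 Hsp70 partners. Of the chain modification genes it lowered 8 and raised 1, and of the ribosome quality control genes it lowered 2 and raised 1 with TMM, against 5 and 1 on the log2(TPM + 1) scale and 5 and 0 with library totals alone. Among all tested genes it lowered 38.3% and raised 38% with TMM.

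With TMM, 5ph-IAA at 39 °C raised 3 TRiC genes and lowered 2, raised 2 prefoldin and 3 signal recognition particle genes with none lowered, and raised 5 chain modification genes with 1 lowered (NAT3). Over all tested genes, 22.5% were called higher and 22% lower. On the log2(TPM + 1) scale 7 TRiC, 5 prefoldin, 8 signal recognition particle and 10 chain modification genes were higher and none lower. With library totals alone 5 TRiC, 3 prefoldin, 6 signal recognition particle and 8 chain modification genes were higher, and 1 chain modification gene was lower. Ribosome quality control genes split into 2 higher and 2 lower with TMM, but none was lower and 2 were higher with DESeq2 and 4 on the log2(TPM + 1) scale. With TMM, 8 of 10 Hsp70 partners were lower with none higher, against 4 lower and 1 higher on the log2(TPM + 1) scale. The interaction was positive for all 8 TRiC genes with TMM, with a median of 0.37, against 0.11 with library totals alone, where 3 passed, and 0.0074 on the log2(TPM + 1) scale, where none passed. It was positive for 6 of 12 chain modification, 4 of 8 signal recognition particle, 2 of 6 prefoldin and 3 of 7 ribosome quality control genes, with none negative, but the medians of the last 3 lists were below 0 with library totals alone. Among all tested genes, 26% were called positive and 22.9% negative with TMM. Hsp70 partners split into 2 positive and 5 negative with TMM, against 0 and 8 on the log2(TPM + 1) scale and 0 and 7 with library totals alone. In the Hsf1 list of 25, heating raised all 25 genes both with 5ph-IAA (median 3.81) and without it (median 4.32), and the interaction was positive for 4 and negative for 17. With library totals alone those last counts were 0 and 20.

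Promoters with RRPE were then described as a group, since 6 of the 7 genes belong to it. Of 898 tested genes with the letters, 67.5% were called lower in heat shock without 5ph-IAA, with a median of −0.83, against 34.6% of 4816 genes without them, with a median of 0.15. In the same comparison 22.8% of genes with the letters were called higher, against 46.2%. With 5ph-IAA at 39 °C, 46.9% of genes with RRPE were called higher, against 18.0% of those without. At 30 °C, 50.4% were called lower with 5ph-IAA, against 24.1%. All shares in this paragraph were taken with TMM alone. The split of higher and lower calls with 5ph-IAA moved with the scaling, and so would these shares. Shares for PAC, which matched in 3 of the 7 genes, leaned the same way. With PAC, 59.4% were called lower in heat shock without 5ph-IAA, against 35.2% of genes lacking it. With 5ph-IAA, 35.8% against 19.5% were higher at 39 °C, and 44.1% against 24.5% were lower at 30 °C. The 6 genes of interest are among those with the RRPE letters, but EGD1 and EGD2 were not called higher with 5ph-IAA at 39 °C. SSZ1, which has RRPE and PAC, was not called lower with 5ph-IAA at 30 °C. No test was made on these shares.

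Likeness between profiles was measured as the root mean square difference of log2 CPM, centred on each gene's mean, over the 8 libraries. The closest pairs among the 7 were EGD1 with EGD2 at 0.141, ZUO1 with SSZ1 at 0.150 and SSB1 with SSB2 at 0.156, which are the subunits or copies of the 3 functional units. The likeness of SSB1 and SSB2 also depends on how the reads they share were divided. SSB1 and BTT1 were farthest apart at 1.05. Among 5290 other genes with a mean of at least 10 TPM, the 10 nearest to the mean profile of the 7 were BER1 at 0.0364, YNR021W, CAF4, FRS1, LYS9, THR4, FRS2, PMT4, ARD1 and ECM33 at 0.0629. FRS1 and FRS2 encode the subunits of phenylalanyl-tRNA synthetase, LYS9 and THR4 enzymes of lysine and threonine synthesis, and ARD1 a subunit of the ribosome-bound acetyltransferase. None of the 10 is a ribosomal protein gene.

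For single genes the 3 nearest were YHR020W, MES1 and POP1 for SSB1 (0.0884 to 0.0984), and TIF2, SAH1 and ILS1 for SSB2 (0.0418 to 0.0660). They were ETT1, EFT1 and NCP1 for ZUO1 (0.0414 to 0.0511), and DPB4, CWP2 and PHO91 for SSZ1 (0.0434 to 0.0477). EGD1 was nearest to ADK1, SER1 and PGI1 (0.0293 to 0.0684) and EGD2 to YIP3, FBA1 and SVL3 (0.0357 to 0.0491). MES1 and ILS1 encode aminoacyl-tRNA synthetases, TIF2 the initiation factor eIF4A, EFT1 elongation factor eEF2, ADK1 adenylate kinase, and PGI1 and FBA1 enzymes of glycolysis. TIF2 and EFT1 have near-identical copies, so their own values depend on how reads were shared. BTT1 had no close match, with SCD5, YCL049C and ABP1 at 0.139 to 0.152.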

How the data were processed

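Poly-A RNA of 8 libraries was prepared with TruSeq RNA v2, per the labels' protocols, a kit that does not mark strand. For each library the authors deposited estimated counts and TPM of 6034 coding targets; kallisto is named in the submitters' processing notes, and its version, the transcripts and the build are not given there or in any other label. Between 6.89% and 7.51% of the deposited estimated counts were not whole. They were rounded to whole numbers and fitted in edgeR 4.0.16 (R 4.3.3; quasi-likelihood test, TMM scaling, filterByExpr, 1 term per group, all 8 libraries, 4 residual degrees of freedom). Tests were 2-sided, adjusted by Benjamini-Hochberg over 5734 genes, threshold 0.05. The deposited TPM served for levels and within-library ratios and, as log2(TPM + 1) and log2(TPM + 0.1), for limma 3.58.1 as an alternative; DESeq2 1.42.0, library totals alone, TMM without ribosomal protein genes, no filter, the 4 libraries of a comparison alone, a replicate block, SSB1 and SSB2 summed, and leaving out each library were the others.

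Replicates are numbered as biological ones, but separate cultures are not stated, so p-values cover the spread of these libraries, which may be technical. Those 2 libraries per group differed by more than counting noise (chi-square per degree of freedom 3.41 to 4.53). Groups came from titles and temperature labels. Named were all 7 genes, up to 2 highest and 2 lowest called genes per list and comparison, genes that bear directly on the 7, and the nearest profiles (prior count 2, mean of at least 10 TPM). Members and lists were chosen with earlier results of these data known. Promoter and coding sequences were read from the RefSeq genome, assembly R64, with Python 3.11.15; the sequence of W303a itself was not checked.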

Additional observations from a re-analysis of the deposited data

Results flagged for a closer look

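The heat shock change differed between cells with and without 5ph-IAA, by the test of the difference itself (edgeR's quasi-likelihood test, Benjamini-Hochberg adjustment), for 6 of the 7 genes. Over all tested genes 48.9% were called in that test, 26% positive and 22.9% negative. Among ribosomal protein genes, 129 of 131 were positive. For the 6 genes the difference in log2 fold change was 1.08 for SSB1, 0.953 for SSB2, 0.813 for ZUO1, 0.587 for SSZ1, 0.329 for EGD1 and 0.29 for EGD2. Those of EGD1 and EGD2 are the ones that turned negative on the log2(TPM + 1) scale.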

How the results depend on the processing

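Of 657 values of the 7 genes and the SSB sum under another setting, 615 kept their call, including all 133 for heat shock without 5ph-IAA. A value that passed in neither setting counts as kept whatever its sign. That was so for BTT1 in heat shock without 5ph-IAA, at −0.028 without control replicate 1 and −0.016 without heat shock replicate 2, and for EGD2 at 39 °C, at 0.049 with library totals alone. For 5ph-IAA at 30 °C the number of called genes, 2965 with TMM, was 4465 with library totals alone (3962 higher, 503 lower), 5134 on the log2(TPM + 0.1) scale and 5141 on the log2(TPM + 1) scale (4865 higher, 276 lower). Signs turned there with library totals alone for ZUO1 (0.24), SSZ1 (0.30) and EGD2 (0.013), and with both pseudocounts for SSB2 (0.058), ZUO1 (0.49), SSZ1 (0.55), EGD1 (0.15) and EGD2 (0.26). At 39 °C they turned with both pseudocounts for EGD1 (0.13) and EGD2 (0.20), and in the interaction for EGD1 (−0.027) and EGD2 (−0.067). The split of calls also moved in heat shock with 5ph-IAA (1409 higher and 3156 lower with library totals, 1577 and 2835 with log2(TPM + 1), 2178 and 2194 with TMM). For 5ph-IAA at 39 °C it was 2315 and 709 with library totals, 3224 and 371 with log2(TPM + 1), 1307 and 874 with DESeq2, and 1292 and 1260 with TMM. For the interaction it was 908 and 2550, 685 and 2948, 1430 and 959, and 1490 and 1315 in the same order.

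Among other changed calls, EGD1 at 30 °C did not pass with library totals alone (−0.10, adjusted p = 0.0722), where BTT1 did (0.76, and 0.97 to 1.01 on the TPM scales). SSZ1 at 30 °C passed without control replicate 1 (−0.14, adjusted p = 0.0425). BTT1 in heat shock with 5ph-IAA did not pass with log2(TPM + 0.1) (adjusted p = 0.0518). EGD1 at 39 °C did not pass with scaling that left out ribosomal protein genes (adjusted p = 0.0556), with library totals alone (0.725) or without heat shock + 5ph-IAA replicate 1 (0.0537) or 2 (0.145). The interactions of EGD1 (0.08, adjusted p = 0.339) and EGD2 (0.04, adjusted p = 0.553) did not pass with library totals alone. Leaving out single libraries gave 4477 to 4733 called genes for heat shock without 5ph-IAA, 2505 to 2977 for 5ph-IAA at 30 °C, 4037 to 4416 for heat shock with 5ph-IAA, 1991 to 2641 for 5ph-IAA at 39 °C and 2417 to 2620 for the interaction. A group left with 1 library is assumed there to vary like the others.

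Same-numbered replicates deviated with correlations of −0.137 to 0.108. Such low values show no strong effect shared by number but cannot exclude that the samples were paired. The labels state no pairing. With the replicate block, 2983 genes were called for 5ph-IAA at 30 °C, and all 40 calls on the 7 genes and the SSB sum stayed as they were.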
